A study of Mus musculus with 6 samples.

Results

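Hepatic stellate cells are the pericytes of the liver sinusoid, and 31 genes known to mark their quiescent state, or pericytes in general, are described here across 6 libraries. The members are a list of symbols that was matched to the 40879 gene symbols of the count tables, in which all 31 were found. The libraries came from primary stellate cells of wild-type male mice, kept for 24 h with APB-R3 (3 libraries) or with vehicle (3 libraries). APB-R3 is IL-18BP in an engineered form, and IL-18BP is the secreted protein that binds the cytokine IL-18 and so blocks its receptor contact. Its dose is given as 150 µg/ml in one label and as 150 µg/kg in another, so the unit is not settled here. No label says how many animals the cells came from, or that the replicates were separate cultures, so p-values speak only to the spread among these 6 libraries, part or all of which could be technical.

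A quiescent stellate cell stores vitamin A as retinyl esters in lipid droplets and lies against the endothelium of the sinusoid. When it is activated, as happens on culture plastic or in an injured liver, it loses the droplets and many identity transcripts and turns into a contractile, matrix-producing cell. Several identity genes are transcription factors of mesenchymal development, and others encode secreted lectins, receptors and channel subunits that pericytes of other organs also use.

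The APB-R3 libraries held 8323809, 10792531 and 10074669 counts and the vehicle libraries 10431310, 10573916 and 10507141, from a QuantSeq kit, in which a transcript is read near its 3′ end. A level in CPM (counts scaled to a common library size, here with TMM factors) therefore does not grow with gene length. Levels are set side by side between genes on that basis, and differences in how reads were assigned to each gene were not tested. The share of all counts that fell on members was 0.0416% to 0.0483% by library, and 66.5% to 71.2% of that share belonged to 3 genes, Kcnj8, Nes and Abcc9. The label of the cells was only partly matched by its markers. Lrat and Reln were counted in every library, but Gfap, Colec10 and Adamtsl2 had 4, 1 and 0 counts over all 6. All 18 listed markers of sinusoidal endothelium passed the count filter, with a median level of 292 CPM, against 3.19 CPM over the 31 members. In bulk RNA, fewer cells of a type and less RNA per cell cannot be told apart, so every value below is that of a whole culture.

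Of the 31 members, 21 passed the filter on low counts (edgeR's filterByExpr), and the same number had a mean of at least 1 CPM. The other 10 had a mean under 1 CPM and are called hardly counted here. The levels ran over a wide range, and 9 members reached 10 CPM. Kcnj8, at 139 ± 10.7 CPM (SD, n = 6), and Nes, at 126 ± 5.83 CPM, lay above 89.3% and 88.2% of the 12776 genes tested. Abcc9 followed at 40.03 ± 6.47 CPM, Colec12 at 26.9 ± 3.34 CPM and Pparg at 17.0 ± 3.23 CPM. The ranges over the 6 libraries did not overlap between Nes and Abcc9, between Abcc9 and Colec12, or between Colec12 and Pparg. In the other 27 of the 30 pairs of neighbours in the order of levels, Kcnj8 and Nes included, the ranges overlapped. The median level of the 21 tested members was 8.41 CPM, against 21.4 CPM for all genes tested.

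**Figure D1:**
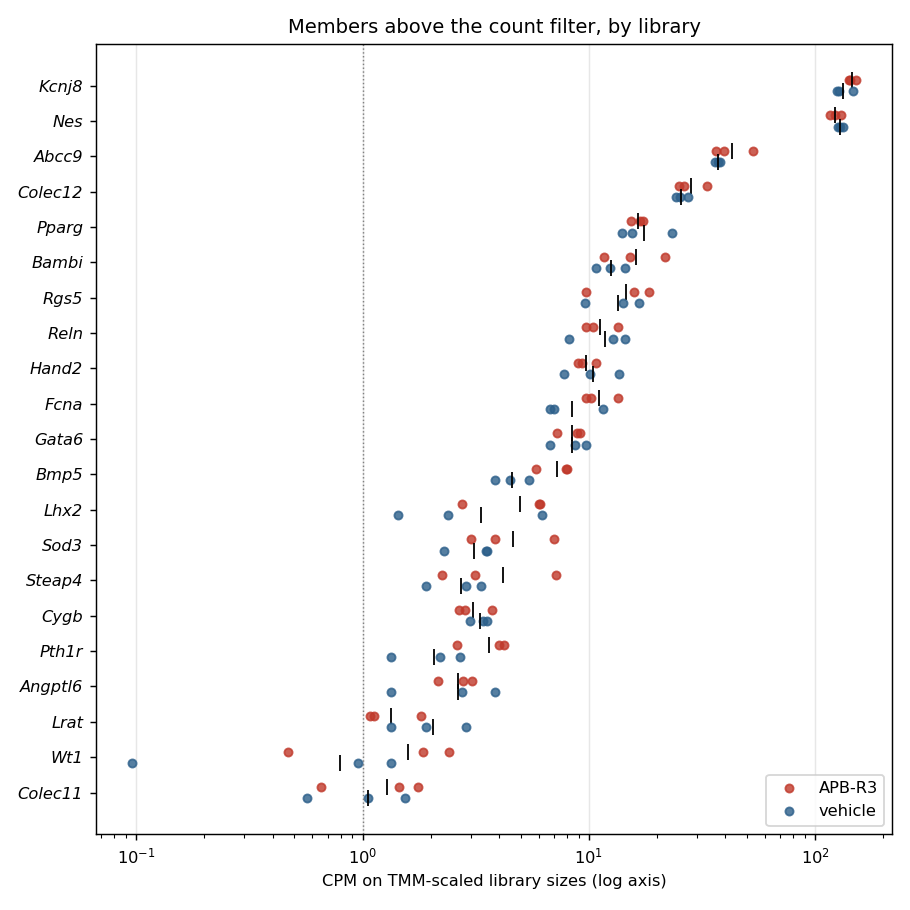
Level of the 21 members above the count filter in each library, in CPM on a log axis, with APB-R3 (red) drawn above vehicle (blue) in each row and black ticks at the group means. Kcnj8 and Nes stand highest in all libraries, and the groups lie apart only for Bmp5.

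The pericyte genes were the best counted role in the list, through Kcnj8, Nes and Abcc9, while Cspg4 and Ifitm1 were hardly counted. Kcnj8 encodes the pore subunit Kir6.1 of an ATP-sensitive potassium channel, and Abcc9 encodes its sulfonylurea receptor SUR2, a pair that marks mural cells in mouse brain and vessels. Kcnj8 had 152, 141 and 142 CPM in APB-R3 replicates 1 to 3, against 128, 146 and 124 CPM in vehicle replicates 1 to 3. Abcc9 had 36.4, 39.7 and 53.0 CPM in APB-R3, against 37.2, 36.0 and 37.9 CPM in vehicle. The groups overlapped for both genes, and the highest Abcc9 level was that of APB-R3 replicate 3. The log2 fold change was 0.13 (SE 0.10) for Kcnj8 and 0.22 (SE 0.14) for Abcc9, or 0.04 for Abcc9 without that library. The count ratio of Kcnj8 to Abcc9 was 4.17, 3.55 and 2.68 in APB-R3 and 3.43, 4.07 and 3.28 in vehicle, or 3.47 ± 0.747 and 3.59 ± 0.416 (SD, n = 3 each), so the pore subunit was counted more often than its partner in every library. In RefSeq's mouse annotation (GRCm38.p6) these genes are neighbours, with 0 protein-coding genes between them.

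The 250 bases before the start site are given for these channel partners, for Bmp5, the gene whose groups did not overlap, and for Lrat, which encodes the enzyme that makes the stored retinyl esters. Sequences are from RefSeq's start sites on GRCm38.p6, written 5′ to 3′ on the strand of the gene, and the capitals mark E-boxes (CANNTG, the same on both strands), the motif of basic helix-loop-helix factors such as Tcf21 and Hand2. The windows are chr6:142571615-142571864 (minus strand) for Kcnj8, chr6:142702275-142702524 (minus strand) for Abcc9, chr9:75775115-75775364 (plus strand) for Bmp5 and chr3:82903975-82904224 (minus strand) for Lrat.
Kcnj8: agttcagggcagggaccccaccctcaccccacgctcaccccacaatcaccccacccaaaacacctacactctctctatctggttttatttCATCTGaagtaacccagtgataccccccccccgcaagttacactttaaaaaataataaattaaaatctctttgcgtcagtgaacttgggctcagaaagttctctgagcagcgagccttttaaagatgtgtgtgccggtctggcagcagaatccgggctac
Abcc9: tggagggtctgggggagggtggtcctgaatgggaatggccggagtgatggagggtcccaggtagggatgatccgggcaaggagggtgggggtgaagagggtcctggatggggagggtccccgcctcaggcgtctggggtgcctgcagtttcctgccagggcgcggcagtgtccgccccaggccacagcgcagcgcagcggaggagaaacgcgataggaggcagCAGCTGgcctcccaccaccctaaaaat
Bmp5: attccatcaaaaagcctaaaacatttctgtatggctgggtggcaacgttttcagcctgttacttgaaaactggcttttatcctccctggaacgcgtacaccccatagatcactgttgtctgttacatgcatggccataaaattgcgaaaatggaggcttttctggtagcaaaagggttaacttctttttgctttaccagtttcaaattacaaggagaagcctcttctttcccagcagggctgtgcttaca
Lrat: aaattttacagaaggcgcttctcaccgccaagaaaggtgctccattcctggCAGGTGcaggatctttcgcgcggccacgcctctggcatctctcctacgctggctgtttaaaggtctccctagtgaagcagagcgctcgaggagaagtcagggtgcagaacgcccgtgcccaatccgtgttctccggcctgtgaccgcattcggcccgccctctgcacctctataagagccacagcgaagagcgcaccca
Kcnj8, Abcc9 and Lrat each held 1 E-box in this window and Bmp5 held 0. The channel partners differed in base composition, with 6 CpG dinucleotides and 49.2% G+C before Kcnj8 and 12 and 66.8% before Abcc9. Start sites were at hand for 24 of the 31 members, 29 sites in all. An E-box was present at 15 of these 29 (51.7%), against 66.2% of 32851 start sites of all genes in the table. AGATAA, read on both strands as a GATA motif, was present at 13.8% of the members' sites and 9.99% of all sites, and TATAAA, on both strands, at 10.3% and 12.4%. The median number of CpG dinucleotides was 12 at the members' sites and 6 at all sites. These matches describe the windows only.

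Nes encodes nestin, an intermediate filament protein of stem and progenitor cells that activated stellate cells and growing endothelium also make. Nes had 117, 129.6 and 122 CPM in APB-R3, against 126, 128 and 133 CPM in vehicle, and the groups overlapped. Its log2 fold change of −0.07 (SE 0.10) had the narrowest 95% interval among the members, from −0.27 to 0.13. Rgs5, which encodes a regulator of G-protein signalling and is a standard pericyte marker, had 18.4, 15.9 and 9.68 CPM in APB-R3, against 16.6, 14.2 and 9.59 CPM in vehicle. Replicate 3 was the lowest library of each group for Rgs5, and the log2 fold change was 0.12 (SE 0.24). Cspg4, the proteoglycan NG2 of pericytes, had 2, 0 and 4 counts in APB-R3 and 2, 1 and 15 in vehicle, so 15 of its 24 counts came from 1 library. Ifitm1, an interferon-inducible membrane protein, had 5, 0 and 0 counts in APB-R3 and 7, 2 and 5 in vehicle. Of 20 other mural cell genes listed, 13 passed the count filter, 5 higher and 8 lower with APB-R3 and none called, with Mcam, Mylk and Anpep the most abundant. The median over the 20 was 2.06 CPM. Those that did not pass were Vtn, Actg2, Cox4i2, Tbx18, Heyl, Ndufa4l2 and Higd1b, with means from 0.559 CPM for Vtn down to 0 for Higd1b.

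The markers of vitamin A storage and of classical stellate identity were low. Lrat had 1.81, 1.12 and 1.08 CPM in APB-R3, against 2.88, 1.34 and 1.90 CPM in vehicle, which is 15, 12 and 11 counts against 30, 14 and 20. The groups overlapped, and the log2 fold change of −0.62 (SE 0.58) had a 95% interval from −1.83 to 0.59. With 1 library left out, the value ran from −0.89 without APB-R3 replicate 1 to −0.29 without vehicle replicate 1. Reln, a secreted glycoprotein that among liver cells marks stellate cells, was the best counted of this role, with 10.4, 9.71 and 13.5 CPM in APB-R3, against 12.7, 14.5 and 8.16 CPM in vehicle. Vehicle replicate 3 had the lowest Reln level of all, and the log2 fold change was −0.07 (SE 0.24). Angptl6, a secreted angiopoietin-like protein, had 2.78, 2.15 and 3.03 CPM in APB-R3, against 1.34, 3.83 and 2.75 CPM in vehicle, with nearly equal means and a log2 fold change of 0.004 (SE 0.49). Ngfr, the p75 neurotrophin receptor, had 1, 1 and 0 counts in APB-R3 and 0, 0 and 6 in vehicle. Gfap, the glial filament protein that rodent stellate cells share with astrocytes, had 0, 0 and 2 counts in APB-R3 and 1, 0 and 1 in vehicle. Adamtsl2, a secreted matrix protein that binds microfibrils, had 0 counts in all 6 libraries, which allows a level of up to 0.0494 CPM (3 counts over all 6, counting error only).

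**Figure D2:**
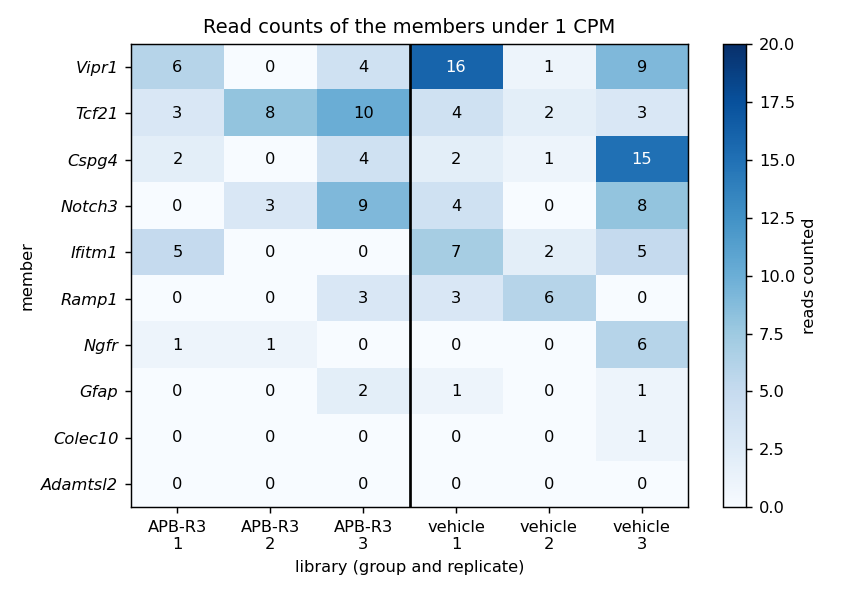
Reads counted for the 10 members under 1 CPM (rows) in each library (columns, APB-R3 left of vehicle), with darker cells for higher counts. Totals run from 36 for Vipr1 to 0 for Adamtsl2, and single libraries carry the largest cells, such as 16 for Vipr1 in vehicle replicate 1 and 15 for Cspg4 in vehicle replicate 3.

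The 10 hardly counted members had 61 counts in all in the APB-R3 libraries, of 29191009, and 97 in the vehicle libraries, of 31512367. Vipr1, a receptor for vasoactive intestinal peptide, led with 6, 0 and 4 counts in APB-R3 and 16, 1 and 9 in vehicle. Over all libraries its 36 counts equal 0.593 CPM of the plain library totals, and the exact Poisson interval at 95% runs from 0.415 to 0.821 CPM, for counting error only. Ramp1, the partner protein of the receptor for the neuropeptide CGRP, had 0, 0 and 3 counts in APB-R3 and 3, 6 and 0 in vehicle. Notch3, the Notch receptor of mural cells, had 0, 3 and 9 counts in APB-R3 and 4, 0 and 8 in vehicle. Tcf21, a basic helix-loop-helix factor of mesenchymal precursors, was the hardly counted member with a count in every library, with 3, 8 and 10 counts in APB-R3 and 4, 2 and 3 in vehicle. None of these 10 was tested with the filter in place, and for none did the groups lie apart in CPM. No test was made of whether such counts come from little transcript or from how reads were assigned.

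Among the transcription factors, Pparg, the nuclear receptor of fat cells that quiescent stellate cells share, had 16.8, 15.4 and 17.3 CPM in APB-R3, against 15.4, 23.2 and 14.05 CPM in vehicle. Only vehicle replicate 2 stood above the other libraries, and the log2 fold change was −0.09 (SE 0.20), or 0.17 without it. Hand2, another basic helix-loop-helix factor, had 9.32, 8.96 and 10.75 CPM in APB-R3, against 13.6, 7.76 and 10.1 CPM in vehicle. In GENCODE's GRCm38 annotation its locus carries an opposite-strand gene, Hand2os1, with 174 counts against 612 for Hand2. Whether the counting used strand is not stated, so how reads in any shared stretch were assigned is not known. Gata6, a zinc-finger factor of mesoderm and endoderm, had 7.26, 9.15 and 8.89 CPM in APB-R3, against 9.68, 8.72 and 6.74 CPM in vehicle, and its log2 fold change was 0.01 (SE 0.25). All 3 factors had overlapping groups, and the log2 fold change of Hand2, −0.11 (SE 0.24), turned to 0.12 without vehicle replicate 1.

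Lhx2, a LIM homeobox factor whose loss in mice leads to stellate cell activation and fibrosis, differed most between libraries relative to counting error. Lhx2 had 6.05, 6.07 and 2.74 CPM in APB-R3, against 1.44, 6.23 and 2.37 CPM in vehicle. The high libraries, APB-R3 replicates 1 and 2 and vehicle replicate 2, stood in both groups. The log2 fold change of Lhx2 was 0.56 (SE 0.47), and it was 1.37 without vehicle replicate 2 and 0.20 without vehicle replicate 1. Wt1, a zinc-finger factor of mesothelium and its stellate cell descendants, had 20, 5 and 19 counts in APB-R3, against 10, 1 and 14 in vehicle. Its log2 fold change was 0.96 (SE 0.79), in a 95% interval from −0.67 to 2.59, and it ran from 0.45 without vehicle replicate 2 to 1.55 without vehicle replicate 3. The second replicate of each group was the lowest for Wt1. Of 13 markers of mesothelium and portal fibroblasts, Wt1 among them, 7 passed the filter, 3 higher and 4 lower. Their summed level ran from 94.4 to 119 CPM in APB-R3 and from 108 to 127 CPM in vehicle, led by Fbln2, Cd34 and Krt19. Gli1 had no count. Of the mesothelial markers, Gpm6a and Lrrn4 passed the filter and averaged 1.65 and 1.14 CPM, beside 1.19 CPM for Wt1. Upk3b, Upk1b, Msln and Muc16 averaged 0.273, 0.196, 0.0326 and 0.0202 CPM. The part of such cells in the Wt1 level was not tested.

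The lectins were counted unevenly. Colec12, a membrane-bound collectin that acts as a scavenger receptor, had 25.04, 33.3 and 26.3 CPM in APB-R3, against 24.2, 27.3 and 25.3 CPM in vehicle. Fcna, the soluble ficolin A, had 9.68, 10.2 and 13.4 CPM in APB-R3, against 6.996, 11.6 and 6.74 CPM in vehicle. Colec11 and Colec10 encode the soluble collectins CL-K1 and CL-L1, which join into mixed complexes and start the lectin pathway of complement. Colec11 had 12, 7 and 18 counts in APB-R3, against 11, 16 and 6 in vehicle, while Colec10 had a single count, in vehicle replicate 3. The groups overlapped for all 4 lectins. The log2 fold change was 0.15 (SE 0.15) for Colec12, 0.39 (SE 0.26) for Fcna and 0.28 (SE 0.68) for Colec11. That of Colec12 was 0.006 without APB-R3 replicate 2, and that of Fcna ran from 0.24 without APB-R3 replicate 3 to 0.70 without vehicle replicate 2. Fcna is also made by macrophages, and the libraries with its highest levels, APB-R3 replicate 3 and vehicle replicate 2, also had the highest summed levels of 16 markers of Kupffer cells and macrophages, led by Fcer1g, Cd5l and Lyz2. These sums were 673, 659.5 and 903 CPM in APB-R3, against 709, 801 and 587 CPM in vehicle. Of the markers 15 passed the filter, 11 higher and 4 lower with none called, and none was at 0. Their part in the Fcna level was not tested.

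Among the receptors and ligands, Bmp5, a bone morphogenetic protein ligand, was the member whose groups did not overlap. Bmp5 had 7.98, 7.94 and 5.86 CPM in APB-R3, against 5.46, 3.83 and 4.46 CPM in vehicle, which is 66, 85 and 60 counts against 57, 40 and 47. The lowest APB-R3 library stood just above the highest vehicle library. The means were 7.26 ± 1.21 CPM in APB-R3 and 4.59 ± 0.822 CPM in vehicle (SD, n = 3 each). The log2 fold change was 0.66 (SE 0.31), in a 95% interval from 0.025 to 1.30 that is not adjusted for the number of genes. Bmp5 did not pass edgeR's quasi-likelihood test over all genes (adjusted p = 0.9998, unadjusted p = 0.0425). Its log2 fold change ran from 0.55 to 0.80 with 1 library left out in turn, and its unadjusted p from 0.0261 to 0.108.

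Bambi encodes a receptor-like protein without a kinase domain that damps TGF-beta signalling, and it is known to be lost as stellate cells are activated. Bambi had 15.2, 11.7 and 21.6 CPM in APB-R3, against 12.5, 14.4 and 10.7 CPM in vehicle. APB-R3 replicate 3 was the highest library, and without it the log2 fold change was 0.10, against 0.37 (SE 0.22) with all 6. Pth1r, the receptor of parathyroid hormone, had 4.23, 2.61 and 4.01 CPM in APB-R3, against 2.68, 2.203 and 1.33 CPM in vehicle. The groups overlapped narrowly. The log2 fold change was 0.80 (SE 0.47), in a 95% interval from −0.17 to 1.77.

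In the redox group, Cygb, the globin cytoglobin found in stellate cells, had 2.66, 3.74 and 2.83 CPM in APB-R3, against 3.55, 2.97 and 3.42 CPM in vehicle, and its log2 fold change was −0.10 (SE 0.42). Sod3, the extracellular superoxide dismutase, had 3.02, 3.83 and 7.04 CPM in APB-R3, against 3.55, 2.30 and 3.51 CPM in vehicle. Steap4, a metalloreductase of the cell surface, had 7.14, 2.24 and 3.13 CPM in APB-R3, against 2.88, 3.35 and 1.90 CPM in vehicle. For each of the last 2 genes 1 APB-R3 library stood far above the rest. Without that library the log2 fold change was 0.14 in place of 0.57 (SE 0.41) for Sod3 and −0.02 in place of 0.60 (SE 0.47) for Steap4.

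The spread between libraries was set beside the spread that counting alone gives, taken as 1 over the square root of the mean count. The coefficient of variation over the 6 libraries was over 3 times the counting error in 5 tested members, Lhx2, Bambi, Abcc9, Steap4 and Rgs5, and between 2 and 3 times in 10 others. Lhx2 had 52.9% against 15.6% from counting. Nes had 4.63% against 2.80%, Gata6 13.7% against 10.83%, and Cygb 13.5% against 17.5%, so that Cygb varied by no more than counting allows. Vehicle replicate 3 had the lowest level of 10 of the 21 members and the highest of 1, with a median deviation from each gene's own mean of −0.26 on the log2 scale. That deviation was between −0.04 and 0.13 in the other 5 libraries.

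**Figure D3:**
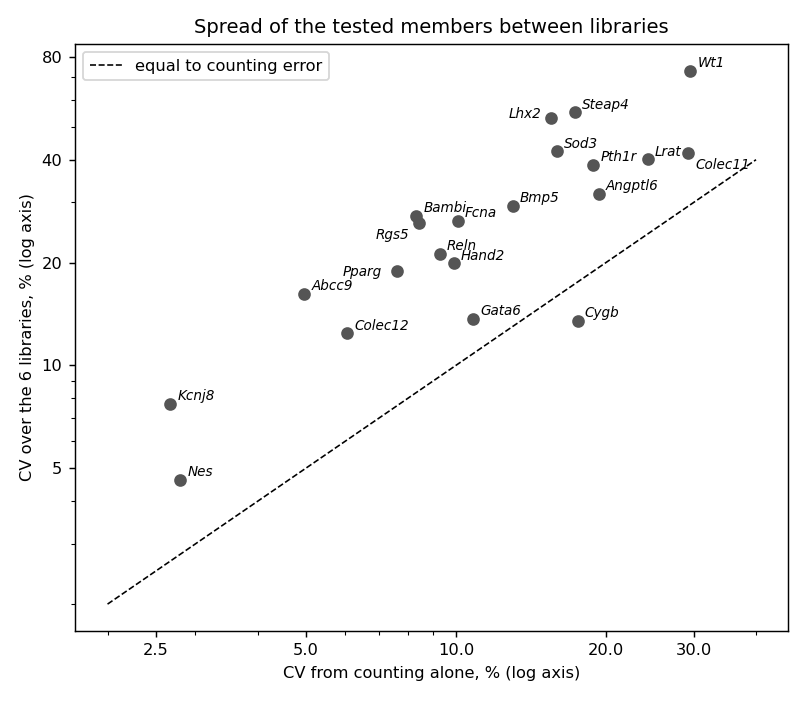
Coefficient of variation (CV) of each tested member over the 6 libraries, in percent, against the CV from counting alone, both on log axes. All but Cygb lie above the dashed line of equality, with Nes and Kcnj8 lowest and Wt1 highest.

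The companion lists put these levels in place. The 17 other genes of quiescent stellate cells, led by Igfbp3, Dcn and Ecm1, had a median of 25.7 CPM. Of these 15 passed the filter, with 11 higher and 4 lower and none called. Prelp alone had an unadjusted p under 0.05, against 3.33% of all genes, at a log2 fold change of 0.47 (SE 0.15). The groups did not overlap in 2 of the 15, Prelp and Hhip, both higher with APB-R3, against 8.81% of all genes. Hhip had a log2 fold change of 0.28 (SE 0.44). The 22 genes of activated stellate cells, led by Ccn2, Vim and Itgb1, had a median of 117 CPM, with 9 higher and 13 lower and none called. At an unadjusted p under 0.05 there were 3, all lower, against 3.33% of all genes. They were Acta2, the smooth muscle actin, at a log2 fold change of −0.43 (SE 0.11), the collagen gene Col1a2 at −0.25 (SE 0.11) and the matrix protein gene Postn at −0.52 (SE 0.24). The groups did not overlap in 4 of the 22, with APB-R3 lower for Acta2, Postn and Myl9 and higher for Timp1, against 8.81% of all genes. These genes are named after their values were seen. The summed level of the endothelial markers, led by Lyve1, Cdh5 and Pecam1, was 7855 ± 553 CPM in APB-R3 and 8290 ± 493 CPM in vehicle (SD, n = 3 each), with 5 markers higher and 13 lower. The 12 hepatocyte markers, led by Alb, Ass1 and Fgb, had a median of 1.12 CPM, with 5 tested, 1 higher and 4 lower. Alb and Fgb had an unadjusted p under 0.05, against 3.33% of all genes, and their groups overlapped. The summed hepatocyte level was 12.6, 16.8 and 24.8 CPM in APB-R3, against 21.1, 78.7 and 17.8 CPM in vehicle. Vehicle replicate 2 thus stood apart, with 339 of the counts of Fgb against 0 to 14 elsewhere. The same library was the highest for 4 tested members, Pparg, Lhx2, Reln and Angptl6, and the lowest for 5. Its part in the levels of members was not tested. Cholangiocyte markers, led by Spp1, Krt19 and Sox9, had a median of 0.484 CPM, with 3 tested, 2 higher and 1 lower. Those of Schwann cells and neurons had a median of 0.129 CPM, with 4 tested, 4 higher and 0 lower. Uchl1, Tubb3 and Mbp led that list. The APB-R3 libraries lay above all vehicle libraries for Tubb3 and Mbp, against 4.43% of all genes. The log2 fold change was 0.41 (SE 0.23) for Tubb3 and 1.68 (SE 0.62) for Mbp. Mbp had an unadjusted p of 0.0126 in edgeR, where 3.33% of all genes were under 0.05. In the same list Ngfr and Gfap are members here, and Sox10, the factor that defines Schwann cells, had no count. Among the tested genes of the other lists, groups also lay apart for Lyz2 of 15 macrophage and Cnn1 of 13 mural genes, both higher with APB-R3. They did so for Tek of 18 endothelial and Sox9 of 3 cholangiocyte markers, both lower, against 8.81% of all genes. Of listed genes below the filter, Vtn and Actg2 were lower in all APB-R3 libraries than in all vehicle libraries, and Hnf4a was higher. None of the genes in these lists passed the test. Those singled out by an unadjusted p or by groups lying apart were picked after their values were seen.

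**Figure D4:**
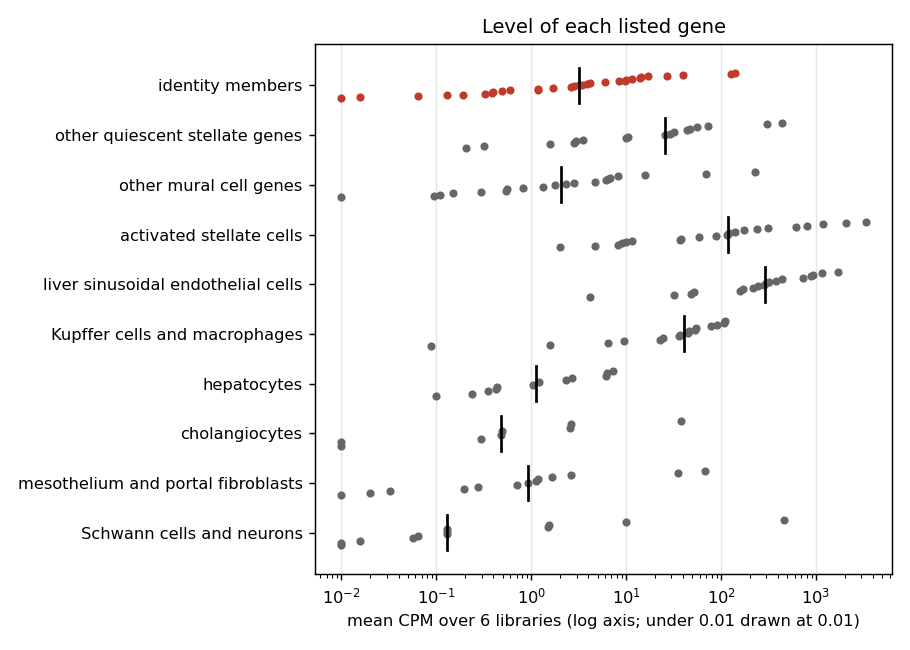
Mean level over the 6 libraries of each listed gene, in CPM on a log axis, with the identity members in red, other lists in grey and a black bar at each median. The 31 members spread from 0 to 139 CPM, with a median of 3.19 CPM, below those of the other quiescent, activated, endothelial and macrophage lists.

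The study's question is whether stellate cell activation is attenuated by APB-R3. With edgeR's quasi-likelihood test and an adjusted p threshold of 0.05, 0 of the 21 tested members were called between APB-R3 and vehicle. Over all 12776 genes tested the share called was 0%. At an unadjusted p under 0.05 there was 1 member, Bmp5, where the share over all genes was 3.33%. All 3 APB-R3 libraries lay above all 3 vehicle libraries in 1 member, again Bmp5, with a share of 4.43% over all genes, and below them in 0 members, with a share of 4.38%, or 8.81% for both directions. These counts are near what the shares over all genes give. DESeq2 and limma-voom called 0 members as well, each with 1 at an unadjusted p under 0.05.

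Of the 21 tested members 15 had a positive and 6 a negative log2 fold change, against 6481 and 6295 of all genes tested, and the median was 0.15, against 0.003 over all genes. Without vehicle replicate 3, the library with the low levels, 12 were positive and 9 negative, with a median of 0.08. The 15 and 6 also became 12 and 9 without APB-R3 replicate 1 or 3. The summed level of all 31 members was 459, 456 and 475 CPM in APB-R3, against 432, 461 and 415 CPM in vehicle, or 463 ± 10.3 and 436 ± 23.3 CPM (SD, n = 3 each), and vehicle replicate 2 lay within the range of APB-R3. For 12 of the 21 members the 95% interval lay wholly within a 2-fold change either way, Kcnj8 (−0.08 to 0.33), Abcc9 (−0.07 to 0.51) and Colec12 (−0.17 to 0.46) among them. For the low members, such as Lrat, Wt1 and Colec11, the 95% interval reached past a 2-fold change in at least 1 direction.

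**Figure D5:**
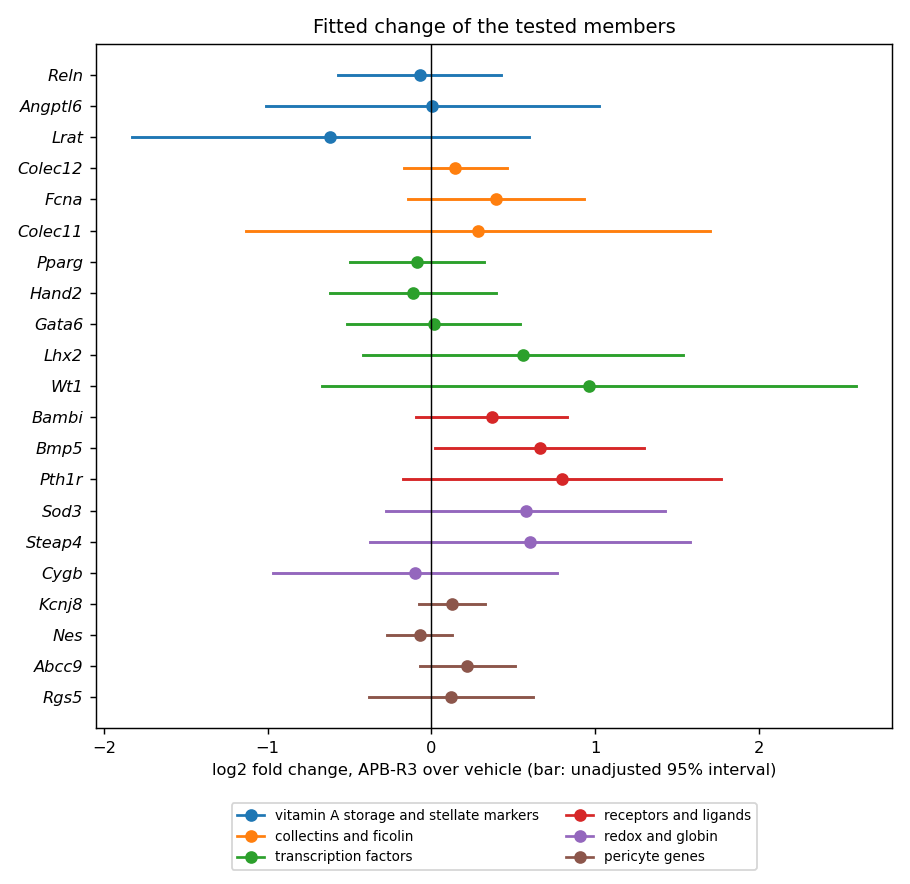
Log2 fold change of APB-R3 over vehicle for each tested member, with its 95% interval not adjusted for the number of genes, coloured by role. The interval of Bmp5 alone leaves out 0, and intervals widen toward low members such as Wt1.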

How the data were processed

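RNA from 3 APB-R3 and 3 vehicle libraries was taken with Trizol, and 500 ng went into each Lexogen QuantSeq library, per the labels' protocols. Per the submitters' processing notes, reads were handled with bcl2fastq 2.20.0.422, fastp, STAR and HTSeq on GRCm39; neither the annotation nor the strand and molecular identifier settings are stated there. The authors deposited whole-number counts per gene symbol, not normalized. File headers number the libraries differently from the titles, and the titles were used.

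Counts went into edgeR 4.0.16 under R 4.3.3, with filterByExpr (minimum count 10, minimum total 15), TMM factors and the quasi-likelihood fit (glmQLFit, glmQLFTest) on treatment alone. P-values are two-sided and Benjamini-Hochberg adjusted over all genes, with a threshold of 0.05. The standard error is the log2 fold change divided by the root of F. Hardly counted means under 1 CPM over the 6 libraries. All members are named, and of each companion list the 3 most abundant tested genes. Other genes of these lists were named after their values were seen. Members and lists were chosen with earlier results of these data known. GENCODE and RefSeq for GRCm38 served to find overlapping genes and start sites. The procedure was tested on simulated data. Alternatives were other scaling, other filters, DESeq2 1.42.0, limma-voom (limma 3.58.1), a block for the replicate number and each library left out. No pair of libraries agreed within sampling noise.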

Additional observations from a re-analysis of the deposited data

How the results depend on the processing

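In every alternative run 0 members were called. Over all genes the number called was 0 with all 6 libraries in edgeR, 20 with no filter on low counts (none of them a member), and 0 to 1 with each library left out in turn, where the 1 gene came without vehicle replicate 3. No direction of a member turned with another scaling, filter, tool or block. In 8 of the 21 members it turned with 1 library left out. The log2 fold change then ran from −0.31 to 0.37 for Angptl6, −0.29 to 0.12 for Hand2, −0.28 to 0.10 for Reln, −0.23 to 0.17 for Pparg, −0.018 to 0.66 for Colec11, −0.12 to 0.13 for Gata6, −0.075 to 0.35 for Rgs5 and −0.016 to 0.91 for Steap4; the cause was not tested. It ran from 0.56 to 1.02 for Pth1r, −0.27 to −0.013 for Cygb, −0.11 to −0.04 for Nes, 0.08 to 0.21 for Kcnj8 and 0.04 to 0.32 for Abcc9, which kept their direction. The median over tested members ran from 0.08 to 0.21. Hardly counted members numbered 9 under 0.5 CPM, 13 under 2 CPM and 7 under 10 counts in each library, against 10 under 1 CPM. The titles number the replicates of both groups 1 to 3, but libraries of the same number deviated together only weakly (correlations 0.0225, 0.027 and 0.048, each the highest for its library, a hint from the data and not the design), so the numbers were not taken as pairs. With a replicate block 0 genes and 0 members were called, 539 genes had an unadjusted p under 0.05, against 425 without it, and the median over members was 0.14. Depth limits members with few counts most.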
